A study of Mus musculus with 18 samples.

Results

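Elastic fibers let the wall of a large artery recoil after each heartbeat. They consist of a core of cross-linked elastin laid down on a scaffold of microfibrils, which are built from fibrillins and carry microfibril-associated glycoproteins. Fibulins, latent TGF-beta-binding proteins and emilins join the core to the scaffold, and lysyl oxidases cross-link the elastin. In the aorta, smooth muscle cells make most of the elastin in development and early life, and adventitial fibroblasts express microfibril genes too.

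Transcripts of 10 such genes were followed in the whole descending aorta: Eln, Fbn1, Fbn2, Fbln5, Efemp2, Mfap2, Mfap4, Mfap5, Emilin1 and Ltbp4. They were chosen by name, as the genes for elastin, the fibrillins and the best known proteins of fiber assembly, and all 10 had a row among the 54281 genes of the deposited count table. RNA came from the intima, media and adventitia together, in male mice of strain C57BL/6, with 6 mice in each of 3 groups. HGPS mice, a model of Hutchinson-Gilford progeria labelled LMNAG609G, carry a knocked-in Lmna mutation at its own locus (homozygous, by the study's description), so that every cell type that uses Lmna can make progerin, and their ages ran from 64 to 75 d. In the 2-mo WT group the ages were 62 d for 5 mice and 95 d for replicate 6, and in the 24-mo WT group 609 to 762 d. Library totals ran from 12413229 to 30844775 estimated counts, and 15210 genes reached 10 counts in 6 or more mice and entered the tests. Levels are CPM, in which each library's counts were brought to one total with TMM factors, and differences are log2 fold changes from edgeR's quasi-likelihood fit of all 18 mice with Benjamini-Hochberg adjustment over the tested genes. "Rose" and "fell" refer to an adjusted p under 0.05, and the stricter cut-offs of the study were a 1.5-fold change with an adjusted p under 0.001. In whole tissue, fewer cells of a type and less RNA per cell cannot be told apart.

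Smooth muscle, fibroblast and endothelial marker genes were all detected, as the tissue label requires. Averaged over 8 smooth muscle markers, log2 CPM was 10.05 to 10.44 in HGPS, 10.59 to 10.89 in 2-mo WT and 10.70 to 10.97 in 24-mo WT, and 6 of the 8 markers fell in HGPS. The score of 8 fibroblast markers was 6.92 to 7.23 in HGPS, 7.57 to 7.74 in 2-mo WT and 7.14 to 7.56 in 24-mo WT, with 6 markers lower in HGPS and 4 lower at 24 mo than in 2-mo WT. All 8 macrophage, all 8 brown fat and 6 of 8 white fat markers rose in HGPS, all 4 tested Schwann cell markers rose at 24 mo, and none of 8 endothelial markers passed in either comparison with 2-mo WT. The sample columns carry numbers of unstated meaning: 19 to 23 for HGPS mice 1 to 3, 48 to 50 for HGPS mice 4 to 6, 41 to 46 for 2-mo WT and 24 to 34 for 24-mo WT. Anything these numbers stand for cannot be told apart from age in the WT comparison. The HGPS numbers lie on both sides of the 2-mo WT range and none lies within it. What they stand for therefore cannot be fully told apart from genotype either.

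In HGPS, the elastic fiber genes of the 2-mo aorta were mostly near their WT levels, with Ltbp4 the exception. Ltbp4 was lower by 0.91 on the log2 scale and passed the stricter cut-offs, Mfap2 fell at the looser threshold, and none of the 9 tested genes rose. Thus 1 of 9 passed the stricter cut-offs, beside 9.5% of all tested genes (5.27% higher, 4.23% lower), and 2 of 9 passed an adjusted p of 0.05, beside 43.2% (22% higher, 21.2% lower). Their median log2 fold change was -0.03, where all tested genes had a median of 0.0026. The tenth gene, Fbn2, had too few counts to be tested and is described from its counts.

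Natural aging gave another picture. Between 2 and 24 mo, Eln, Mfap4 and Mfap5 fell to about 0.49, 0.53 and 0.42 of their young level, and Fbn1, Fbln5 and Mfap2 fell by smaller amounts, while Efemp2, Emilin1 and Ltbp4 did not pass. All 6 of the genes that passed an adjusted p of 0.05 were lower, beside 11.7% of all tested genes (6.29% higher, 5.38% lower), and 3 of 9 passed the stricter cut-offs, beside 2% (1.28% higher, 0.717% lower). The median of the 9 genes was -0.41, beside 0.0083 for all tested genes. In 4 of the 9, the 24-mo WT mice all lay below all of the 2-mo WT mice, beside 3.08% of tested genes in that direction, 3.2% in the other and 6.28% in all. The fibroblast score fell with these genes, by -0.33 from 2 to 24 mo with no overlap and with 4 of 8 markers lower, while the smooth muscle score differed by 0.05 with overlap. The part of the fibroblast change in the fall of the elastic fiber genes was not tested.

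Set directly against 24-mo WT, where genotype and age differ together, HGPS aortas had more Eln, Mfap4, Mfap5, Fbn1 and Fbln5 and less Ltbp4. These 6 of 9 genes passed an adjusted p of 0.05, beside 47.3% of all tested genes (23.8% higher, 23.6% lower), and 4 of them (Eln, Mfap4, Mfap5, Ltbp4) passed the stricter cut-offs, beside 12.1% (6.02% higher, 6.11% lower). In 5 genes (Eln, Fbln5, Mfap4, Mfap5 and Ltbp4) the groups did not overlap, beside 22.2% of tested genes (10.9% higher, 11.3% lower). The median was 0.36 for the 9 genes and -0.010 for all tested genes. This contrast is also the test of the difference between the other two, which share the 2-mo WT mice. The smooth muscle score was lower in HGPS than in 24-mo WT without overlap.

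**Figure D1:**
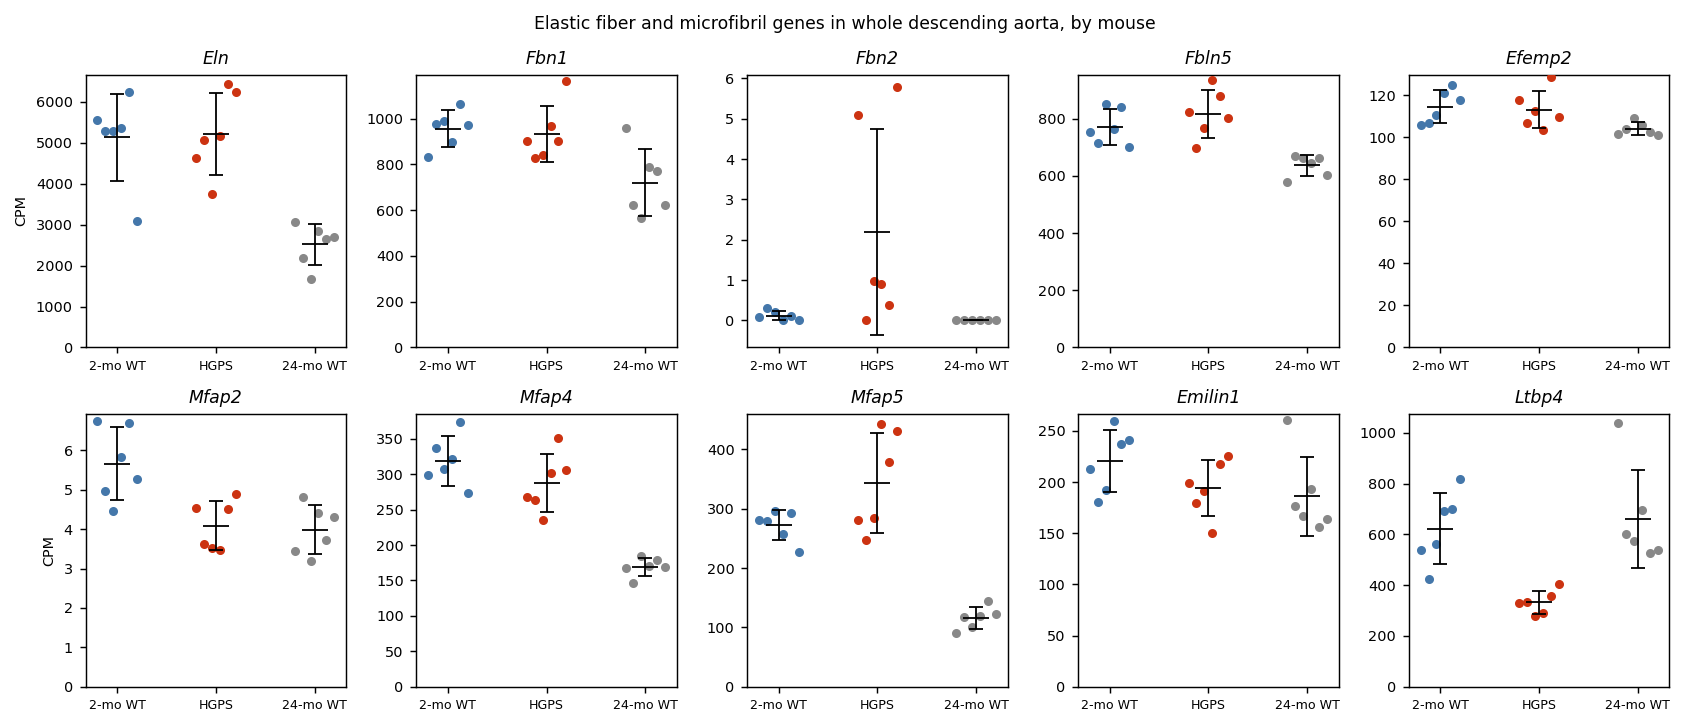
CPM of the 10 genes (vertical axes, each gene on its own scale) in 2-mo WT, HGPS and 24-mo WT mice, with 1 point per mouse and the mean ± SD in black (n = 6). Eln, Mfap4 and Mfap5 sit low in the 24-mo WT mice, Ltbp4 sits low in the HGPS mice, and Fbn2 is above 5 CPM in 2 HGPS mice alone.

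Eln (chr5:134702593-134747323, minus strand, GRCm38) encodes tropoelastin, the soluble monomer of the elastic core. Its level was 3747 to 6429 CPM in HGPS (median 5113), 3101 to 6245 CPM in 2-mo WT (median 5327) and 1662 to 3065 CPM in 24-mo WT (median 2675). HGPS and 2-mo WT overlapped over nearly their whole range, and the highest 24-mo mouse lay just under the lowest 2-mo mouse. HGPS and 2-mo WT differed by 0.02 ± 0.16 (SE) on the log2 scale (edgeR, adjusted p = 0.933), with a 95% interval of the log2 fold change from -0.32 to 0.36. By column number, HGPS mice 1 to 3 had 3747 to 5066 CPM and mice 4 to 6 had 5161 to 6429 CPM. Taken alone, mice 1 to 3 differed from 2-mo WT by -0.19 (edgeR, adjusted p = 0.477) and mice 4 to 6 by 0.22 (adjusted p = 0.427). Between 24-mo and 2-mo WT the log2 fold change was -1.03 ± 0.16 (adjusted p = 0.000273). The lowest 2-mo value, 3101 CPM, came from the 95-d mouse, whose level was 55.9% of the mean of the other 5 mice (5544 ± 406 CPM, SD). Without that mouse the age difference was -1.14, and the HGPS difference was -0.09. Without replicate 5 of 2-mo WT or replicate 2 of 24-mo WT the age difference was -0.97 or -0.99 and just missed the stricter cut-offs.

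Ltbp4 encodes a latent TGF-beta-binding protein that binds fibulin-5 and helps deposit elastin on microfibrils. It was the one gene of the 10 on which HGPS and 2-mo WT mice did not overlap, beside 21.9% of all tested genes (11% higher, 10.9% lower). HGPS mice had 278 to 406 CPM (median 333), 2-mo WT mice 425 to 819 CPM (median 627) and 24-mo WT mice 526 to 1037 CPM (median 588). Each HGPS mouse thus lay below each of the 12 WT mice, whatever their age. It differed by -0.91 ± 0.17 on the log2 scale from 2-mo WT (edgeR, adjusted p = 0.00026) and by -0.99 ± 0.17 from 24-mo WT (adjusted p = 7.91e-05), and 24-mo WT differed from 2-mo WT by 0.09 ± 0.16 (adjusted p = 0.798). The smooth muscle score, which did not overlap between HGPS and WT either, moved with this result. With that score as a covariate the log2 fold change against 2-mo WT was -0.15 with an interval from -0.89 to 0.60 (adjusted p = 0.941), and with brown fat and skeletal muscle scores as covariates it was -0.99 (adjusted p = 0.00606, past 0.05 but not the stricter cut-offs). HGPS mice 1 to 3 taken alone differed from 2-mo WT by -0.98 (adjusted p = 0.00215) and mice 4 to 6 by -0.82 (adjusted p = 0.0130). Since the smooth muscle score did not overlap, the fit with it cannot tell the score apart from genotype. The part of the cell makeup in the Ltbp4 result was not tested beyond these fits.

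The Ltbp4 gene (chr7:27305136-27337692, minus strand) has start sites some kilobases apart, and the deposited counts sum the transcripts from all of them, so a difference at one start cannot be told apart from a difference at all. RefSeq (GRCm38.p6) promoter windows, from 250 bases before a start to 50 after it, show how unlike the upstream and downstream starts are. They are printed with every match of GGGCGG, the core letters of a GC box, in capitals (either strand, so CCGCCC too, with overlapping matches run together). The windows are the upstream start at chr7:27337563-27337862 and a downstream start at chr7:27333599-27333898, both read on the minus strand.
Ltbp4 upstream start: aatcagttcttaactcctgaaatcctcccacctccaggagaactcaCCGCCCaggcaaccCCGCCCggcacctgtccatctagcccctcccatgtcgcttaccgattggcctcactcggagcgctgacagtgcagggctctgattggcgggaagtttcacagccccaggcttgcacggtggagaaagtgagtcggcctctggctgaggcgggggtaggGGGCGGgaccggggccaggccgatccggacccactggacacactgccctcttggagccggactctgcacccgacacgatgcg
Ltbp4 downstream start: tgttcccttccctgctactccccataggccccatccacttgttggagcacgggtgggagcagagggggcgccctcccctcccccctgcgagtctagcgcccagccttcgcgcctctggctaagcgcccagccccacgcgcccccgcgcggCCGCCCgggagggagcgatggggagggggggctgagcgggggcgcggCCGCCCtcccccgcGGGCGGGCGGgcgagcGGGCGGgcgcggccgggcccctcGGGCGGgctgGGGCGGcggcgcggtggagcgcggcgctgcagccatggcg
The upstream window holds 3 such matches at 64.3% G and C, and the downstream window holds 7 at 80.3%. Of the 32851 RefSeq promoter windows of this length, 35.7% hold at least 1. Neither window holds TATAAA (in 13.6% of windows), the AP-1 letters TGANTCA (7.81%) or a CArG box (1.63%), each searched on both strands. These matches describe the letters alone.

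Fbln5 (chr12:101746565-101819055, minus strand) and Efemp2 (chr19:5473954-5482517, plus strand) encode fibulin-5 and fibulin-4, which bind tropoelastin and bring it to microfibrils and to lysyl oxidase. Fbln5 had 697 to 937 CPM in HGPS (median 814), 703 to 852 CPM in 2-mo WT (median 757) and 580 to 668 CPM in 24-mo WT (median 655). The 24-mo WT mice lay below all mice of the other groups, by a small margin. On the log2 scale it changed by -0.27 ± 0.07 from 2 to 24 mo (edgeR, adjusted p = 0.0171), 0.36 ± 0.07 in HGPS against 24-mo WT (adjusted p = 0.000462) and 0.09 ± 0.07 in HGPS against 2-mo WT (adjusted p = 0.361). Efemp2 differed least between the groups, at 104 to 129 CPM in HGPS, 106 to 125 CPM in 2-mo WT and 101 to 109 CPM in 24-mo WT. None of its log2 fold changes passed, and that from 2 to 24 mo was -0.14 with an interval from -0.26 to -0.01 (adjusted p = 0.148). The pair of elastin-binding fibulins therefore moved by less than 1.5-fold in every comparison.

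Emilin1 (chr5:30913402-30921277, plus strand) encodes a glycoprotein at the interface of elastin and microfibrils that also restrains TGF-beta maturation. It had 150 to 226 CPM in HGPS (median 195), 180 to 260 CPM in 2-mo WT (median 225) and 157 to 261 CPM in 24-mo WT (median 171). The groups overlapped. Its log2 fold change was -0.19 ± 0.12 in HGPS against 2-mo WT (edgeR, adjusted p = 0.240) and -0.25 ± 0.12 from 2 to 24 mo (adjusted p = 0.226). Replicate 1 of 24-mo WT, at 261 CPM, decided the second result: without it the log2 fold change was -0.37 (adjusted p = 0.0291).

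Fbn1 and Fbn2 encode the fibrillins, the backbone of microfibrils, of which fibrillin-2 is known mainly from development and fibrillin-1 from both young and adult tissue. Fbn1 (chr2:125300594-125507993, minus strand) had 830 to 1163 CPM in HGPS (median 903), 832 to 1065 CPM in 2-mo WT (median 975) and 564 to 958 CPM in 24-mo WT (median 697). Only replicate 1 of the 24-mo WT mice lay within the range of the younger WT mice. The log2 fold change was -0.41 ± 0.11 from 2 to 24 mo (edgeR, adjusted p = 0.0241), 0.37 ± 0.11 in HGPS against 24-mo WT (adjusted p = 0.0108) and -0.03 ± 0.11 in HGPS against 2-mo WT (adjusted p = 0.841). The call from 2 to 24 mo missed the threshold without replicate 5 of 2-mo WT or without replicate 2, 3 or 6 of 24-mo WT, with adjusted p from 0.0513 to 0.0581. The call against 24-mo WT was lost with HGPS mice 1 to 3 alone (0.26, adjusted p = 0.132), with brown fat and skeletal muscle scores as covariates (adjusted p = 0.0995) and with the smooth muscle score (adjusted p = 0.296).

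Fbn2 (chr18:58008623-58210487, minus strand) was at the edge of detection, and most of its counts came from HGPS mice. The 6 HGPS libraries held 91, 0, 21, 29, 9 and 115 counts, the 2-mo WT libraries 2, 5, 3, 0, 2 and 0, and the 24-mo WT libraries none. Replicates 1 and 6 of HGPS held 77.7% of the HGPS counts, and replicate 2 had no count, so HGPS mice themselves ranged from WT-like to far above. Pooled over mice, HGPS had 265 counts and 2-mo WT 12, a 16.4-fold ratio per library size (95% counting interval 9.24 to 32.2, which leaves out the spread between mice). The pooled HGPS level was 65.9-fold above a floor for 24-mo WT, set by taking 3 counts over that group in place of 0. This ratio leaves out the counting error of HGPS and the spread between its mice, so it is not a lower limit. Only 4 mice reached 10 counts, so Fbn2 was outside the main fit. In an edgeR fit with no count filter the log2 fold change in HGPS against 2-mo WT was 4.13 ± 0.95 (adjusted p = 0.00315).

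Mfap2 and Mfap5 encode MAGP-1 and MAGP-2, small glycoproteins that ride on fibrillin. Mfap5 (chr6:122505845-122529290, plus strand) had 246 to 442 CPM in HGPS (median 331), 227 to 296 CPM in 2-mo WT (median 281) and 90.5 to 144 CPM in 24-mo WT (median 118). Every 24-mo WT mouse was below every younger mouse. The log2 fold change of -1.24 ± 0.14 from 2 to 24 mo (edgeR, adjusted p = 5.94e-06) was the most negative of the 9 tested genes, and HGPS exceeded 24-mo WT by 1.57 ± 0.14 (adjusted p = 5.9e-08). Against 2-mo WT, the HGPS difference of 0.34 ± 0.14 missed the threshold (adjusted p = 0.0549), and it passed with DESeq2 (adjusted p = 0.0353) or without any one of HGPS mice 1, 2 and 3 or replicate 1 or 5 of 24-mo WT (0.0162 to 0.0480). The HGPS mice fell apart by column number: mice 1 to 3 had 281, 246 and 284 CPM, within the 2-mo WT range, and mice 4 to 6 had 442, 378 and 432 CPM, above it. Taken alone, mice 1 to 3 differed from 2-mo WT by -0.0036 (edgeR, adjusted p = 0.985) and mice 4 to 6 by 0.62 (adjusted p = 0.00135). The brown fat score was 5.71, 6.76 and 6.68 in mice 1 to 3 and 4.79, 5.25 and 5.87 in mice 4 to 6. Their ages were 69, 65 and 75 d and 66, 64 and 66 d. The part of either in the split was not tested.

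Mfap2 (chr4:141010418-141015984, plus strand) was the least abundant tested gene, with 59 to 147 counts per mouse. HGPS mice had 3.47 to 4.88 CPM (median 4.06), 2-mo WT mice 4.47 to 6.75 CPM (median 5.56) and 24-mo WT mice 3.18 to 4.81 CPM (median 4.02). HGPS and 24-mo WT covered nearly the same range, and each overlapped the lower part of 2-mo WT. The log2 fold change was -0.48 ± 0.14 in HGPS (edgeR, adjusted p = 0.0105) and -0.51 ± 0.14 from 2 to 24 mo (adjusted p = 0.0235), and HGPS and 24-mo WT differed by 0.04 ± 0.14 with an interval from -0.26 to 0.34. It was the one gene of the 9 that fell in both comparisons with 2-mo WT, which share those 6 mice. The call from 2 to 24 mo was lost without replicate 1 or 5 of 2-mo WT or replicate 3 of 24-mo WT. In HGPS against 2-mo WT the call held with HGPS mice 1 to 3 alone (-0.54, edgeR, adjusted p = 0.0254). It was lost with mice 4 to 6 alone (-0.40, adjusted p = 0.115) and with the smooth muscle score as a covariate (-0.66, adjusted p = 0.519).

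Mfap4 (chr11:61485431-61488900, plus strand) encodes a fibrinogen-related protein that binds tropoelastin and fibrillin. It had 236 to 352 CPM in HGPS (median 285), 273 to 374 CPM in 2-mo WT (median 314) and 147 to 184 CPM in 24-mo WT (median 170). The 24-mo WT mice were tightly grouped below all others. The log2 fold change was -0.91 ± 0.09 from 2 to 24 mo (edgeR, adjusted p = 1.32e-06), 0.77 ± 0.09 in HGPS against 24-mo WT (adjusted p = 1.93e-06) and -0.15 ± 0.09 in HGPS against 2-mo WT (adjusted p = 0.205). Like Mfap5, it differed by column number: HGPS mice 1 to 3 taken alone fell against 2-mo WT by -0.31 (adjusted p = 0.0161), and mice 4 to 6 differed by 0.015 (adjusted p = 0.929). HGPS mice 1 to 3, whose column numbers lie next to those of the 24-mo WT mice, differed from them by 0.84 in Eln (adjusted p = 0.00204), 0.60 in Mfap4 (7.54e-05) and 1.23 in Mfap5 (1e-06). In that fit Eln passed 0.05 but not the stricter cut-offs, and Fbn1, as given above, no longer passed.

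**Figure D2:**
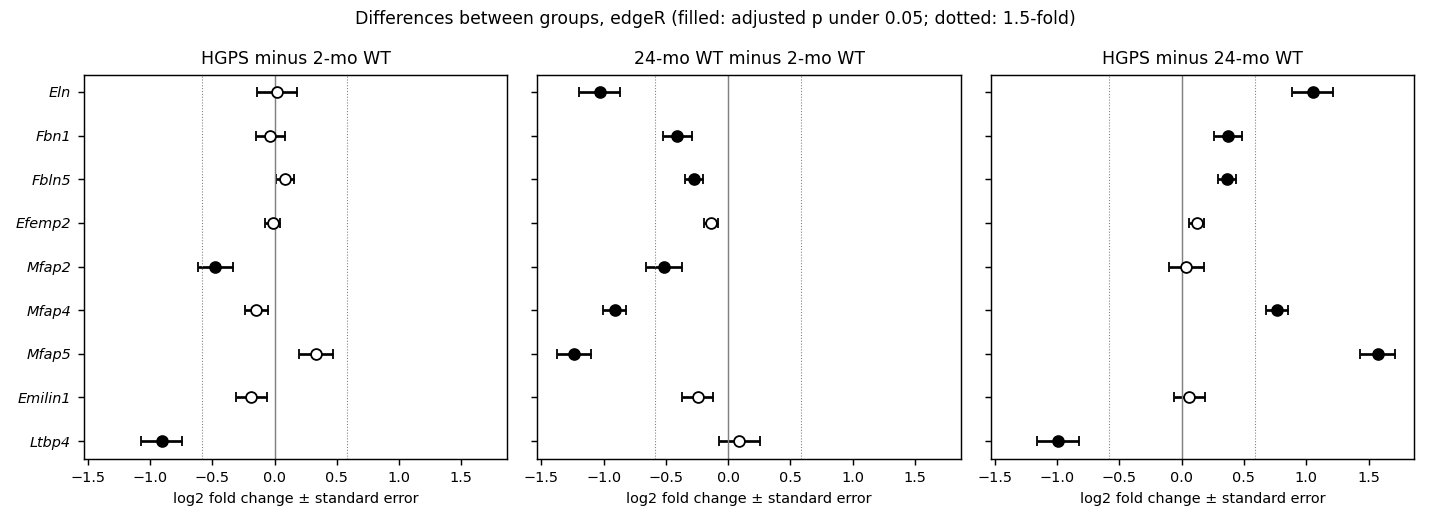
Log2 fold change ± standard error (horizontal axes) of the 9 tested genes in HGPS against 2-mo WT, 24-mo against 2-mo WT and HGPS against 24-mo WT, from edgeR with 6 mice a group. Filled points passed an adjusted p of 0.05 and dotted lines mark 1.5-fold. Ltbp4 and Mfap2 are the filled points in HGPS against 2-mo WT, and 6 genes are filled and negative with age.

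Levels can be compared between genes only per length, here as CPM per kilobase of exon. Elastin transcripts stood far above the rest in each group, at 634 ± 131 (SD, n = 6) in 2-mo WT, 644 ± 124 in HGPS and 311 ± 63.0 in 24-mo WT. By this exon length, Eln made up 51.1%, 53.2% and 41.2% of the summed level of the 10 genes. In 2-mo WT it was followed by Mfap4 (166, from 142 to 194 over the mice), Fbln5 (112 ± 9.01), Ltbp4 (96.4 ± 21.8), Fbn1 (78.8 ± 6.63), Mfap5 (75.9 ± 7.25), Emilin1 (44.7 ± 6.21), Efemp2 (30.2 ± 2.07), Mfap2 (4.68 ± 0.766) and Fbn2. Of these neighbours, Fbln5 and Ltbp4, Ltbp4 and Fbn1, and Fbn1 and Mfap5 lay within 1 SD of each other. Ltbp4 moved from the fourth place to the sixth in HGPS (51.5 ± 7.14) and to the second in 24-mo WT (102 ± 29.9), where it was within 1 SD of Fbln5. That second place rested on replicate 1: over the other 5 mice Ltbp4 had 90.9 and Fbln5 93.9 CPM per kilobase. Mfap2 was about an order of magnitude or more below its relative Mfap5 in every group. The order depends on the length used: with the mean length of coding transcripts only 3 genes kept their places. The level and share of Eln depend on it too, since its exons cover 8098 bases and its longest transcript 3853. By the longest transcript, Eln had 1333 CPM per kilobase in 2-mo WT, 1353 in HGPS and 653 in 24-mo WT. It was first in each group by that length as well.

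**Figure D3:**
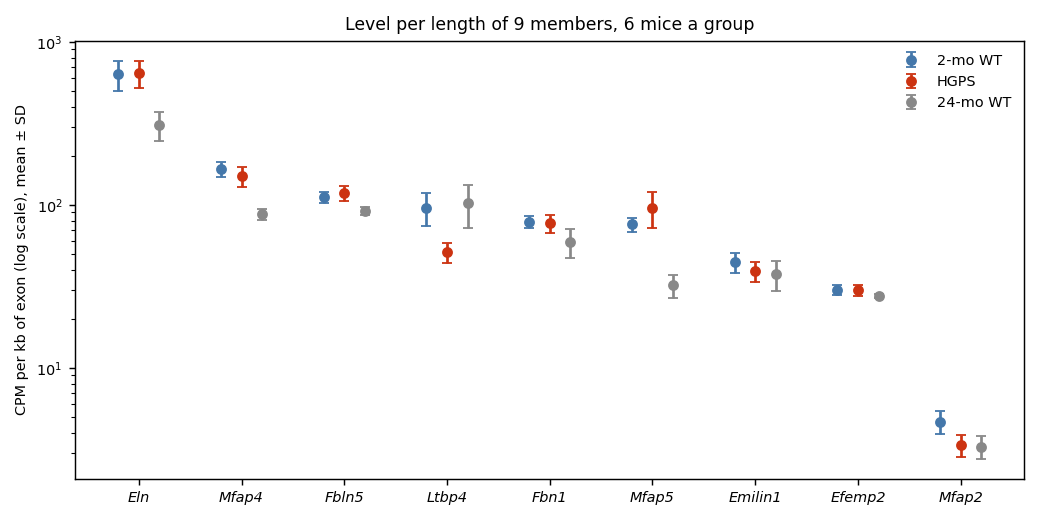
Mean level ± SD in CPM per kilobase of exon (log scale, vertical axis) of 9 genes in 2-mo WT, HGPS and 24-mo WT (n = 6 mice each). Eln is first in each group and Mfap2 last, and Ltbp4 is the gene with the HGPS point farthest below both WT points.

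Ratios of 2 genes were taken within each library, as differences of log2 CPM. The log2 ratio of Mfap5 to Mfap2 was 6.33 ± 0.36 (SD) in HGPS, 5.57 ± 0.26 in 2-mo WT and 4.82 ± 0.24 in 24-mo WT. It differed between HGPS and 2-mo WT by 0.76 and between 24-mo and 2-mo WT by -0.75 (two-sided exact permutation tests, 6 against 6, adjusted p = 0.00866 and 0.00649 over the 12 ratio tests). The smallest raw p that such a test can give is 0.00216. The 2 microfibril-associated glycoproteins thus shifted against each other in opposite directions in HGPS and with age. The log2 ratio of Fbn2 to Fbn1 in HGPS exceeded that of 2-mo WT by 2.52 (exact permutation test, adjusted p = 0.0292), and rested on the few HGPS mice with Fbn2 counts. At such low counts this ratio depends on the prior count: from unscaled counts plus 0.5 the difference was 2.95, and without the 95-d mouse it was 2.33, and neither passed (each adjusted p = 0.0675).

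Elastin was also set against the collagen of the wall. The log2 ratio of Eln to the mean of Col1a1, Col1a2 and Col3a1, the main fibrillar collagens, was 0.41 to 1.08 in HGPS, -0.13 to 0.69 in 2-mo WT and 0.25 to 0.96 in 24-mo WT. Its difference between the WT ages was 0.21 (exact permutation test, adjusted p = 0.224), and the collagen genes fell with age as Eln did, by -0.92 (Col1a1), -0.95 (Col1a2) and -1.66 (Col3a1) on the log2 scale. In HGPS it was 0.39 higher than in 2-mo WT (adjusted p = 0.0346), where Col1a1 differed by -0.26, Col1a2 by -0.33 and Col3a1 by -0.38, of which Col3a1 passed (edgeR, adjusted p = 0.0350). Without the 95-d mouse, this ratio difference was 0.29 and missed the threshold (adjusted p = 0.0675). For the log2 ratio of Eln to the smooth muscle score, the HGPS minus 2-mo WT difference was 0.59 (exact permutation test, adjusted p = 0.00866). Most of it lay in the score, which differed by -0.56 without overlap, while Eln itself differed by 0.02. The 24-mo minus 2-mo WT difference of this ratio was -1.07 (adjusted p = 0.00649), where the score differed by 0.05 with overlap.

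**Figure D4:**
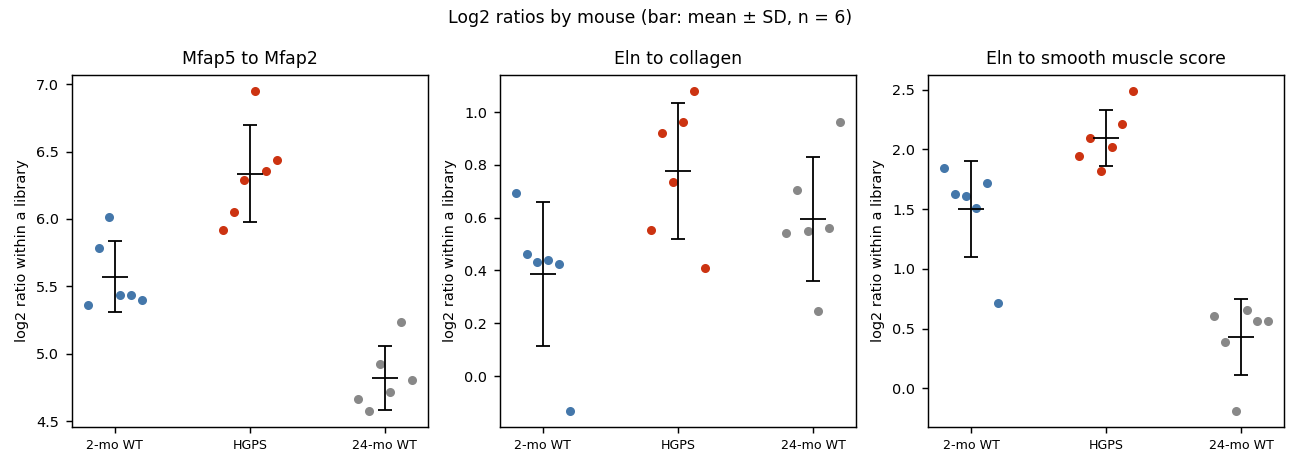
Log2 ratios within each library (vertical axes) of Mfap5 to Mfap2, Eln to 3 fibrillar collagen genes and Eln to the smooth muscle score, with 1 point per mouse and the mean ± SD (n = 6). Mfap5 to Mfap2 runs from 24-mo WT (mean 4.82) over 2-mo WT (5.57) to HGPS (6.33), while the Eln to collagen ratios overlap between the groups.

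Among mice of one group, the Pearson correlation of the 8 other tested genes with Eln ran from -0.04 (Efemp2) to 0.59 (Mfap4). Over deviations from the group means of log2 CPM in 18 mice, Mfap4 had Pearson's r = 0.59 (permutation p = 0.0154, adjusted p = 0.118 over 8 genes) and Spearman's rho = 0.59 (permutation p = 0.0198, adjusted p = 0.158), and Fbn1 had r = 0.53 (p = 0.0294, adjusted p = 0.118) and rho = 0.52 (p = 0.0415, adjusted p = 0.166). None of the 8 correlations passed the adjustment. Without the 2 mice farthest from the median of Eln, the 95-d mouse and replicate 3 of 24-mo WT, r was 0.80 for Mfap4 and 0.58 for Fbn1. Among 10708 genes with a mean count of at least 100, the 5 whose deviations were most like those of Eln were C1qtnf6 (r = 0.90), Adamts10 (0.83), Zfp282 (0.80), Dennd2a (0.80) and Ankrd35 (0.77). These values describe 18 mice that share tissue and dissection. C1qtnf6 fell with age by -1.20 on the log2 scale (edgeR, adjusted p = 6.9e-05), and Adamts10, a protease-family protein that binds microfibrils, by -0.75 (adjusted p = 0.00837).

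Around these genes, 49 others of the elastic fiber pathway were listed by role, of which 47 could be tested. In HGPS against 2-mo WT, 12 of the 47 passed the stricter cut-offs, 7 higher and 5 lower, and 28 passed an adjusted p of 0.05, 15 higher and 13 lower (backgrounds as above, 9.5% and 43.2%). From 2 to 24 mo, 6 passed the stricter cut-offs, 1 higher and 5 lower, and 15 passed an adjusted p of 0.05, 3 higher and 12 lower (2% and 11.7%). The median log2 fold change of the 47 was 0.06 in HGPS and -0.07 with age. In HGPS against 24-mo WT, 12 passed the stricter cut-offs, 8 higher and 4 lower, and 30 passed an adjusted p of 0.05 (12.1% and 47.3%).

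Of 6 genes for elastin cross-linking enzymes and the copper pump that supplies them, 3 rose in HGPS (beside 22% of all tested genes) and 4 fell with age (beside 5.38%). Lox, the main lysyl oxidase of the vessel wall, had 716 to 945 CPM in HGPS, 369 to 523 CPM in 2-mo WT and 209 to 249 CPM in 24-mo WT. The 3 groups did not overlap. Its log2 fold change was 0.85 ± 0.09 in HGPS (edgeR, adjusted p = 6.19e-07) and -0.94 ± 0.09 with age (adjusted p = 5.54e-07). Lox therefore rose in HGPS where Eln differed by 0.02, while with age Lox and Eln both fell in these counts. The study describes the Lox change between the WT ages as minimal in its RNA sequencing and not significant by RT-qPCR. It also reports more LOX protein with age, in the carotid artery. Why its reading of the mRNA differs from the fall seen here was not tested. Loxl2 and Loxl4 also rose in HGPS (0.34 and 0.39) and fell with age (-0.46 and -0.57), and Loxl1 fell with age (-0.39). Against 24-mo WT, Lox (1.79), Loxl1 (0.59), Loxl2 (0.79) and Loxl4 (0.96) were higher in HGPS past the stricter cut-offs.

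Of 19 tested relatives (other fibulins, LTBPs, emilins, ADAMTS-like and further microfibril proteins), 3 rose and 7 fell in HGPS (beside 22% and 21.2% of all tested genes), and 2 rose and 4 fell with age (beside 6.29% and 5.38%). Ltbp2, a fibrillin-binding LTBP that holds no latent TGF-beta, rose in HGPS by 0.92 ± 0.14 (edgeR, adjusted p = 4.83e-05), from 97.0 to 131 CPM in 2-mo WT to 161 to 295 CPM. It moved against Ltbp4, whose HGPS level fell. Thsd4, which encodes the microfibril-assembly protein ADAMTSL6, fell from 558 to 700 CPM in 2-mo WT to 320 to 416 CPM in HGPS (-0.79 ± 0.08, adjusted p = 7.5e-07). Fbln1, for a fibulin found within elastic fibers, fell in HGPS (-0.76) and with age (-0.89), and Fbln7 fell in HGPS (-0.70) and rose with age (0.53). Efemp1, for fibulin-3, rose with age from 18.4 ± 4.80 to 69.0 ± 10.5 CPM (SD, n = 6; log2 fold change 1.91 ± 0.15, adjusted p = 9.47e-08), the reverse of Fbln5 in the same aortas. Adamtsl2, whose product binds LTBP1 and fibrillin-1, fell with age by -1.65 ± 0.18 (adjusted p = 3.93e-06) and rose in HGPS by 0.55 (adjusted p = 0.0117).

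All 6 tested proteases able to degrade elastin changed in HGPS, 4 higher and 2 lower (beside 22% and 21.2% of all tested genes). Mmp2, a gelatinase, rose by 0.79 ± 0.11 in HGPS (edgeR, adjusted p = 1.38e-05), and the lysosomal cathepsins Ctsl and Ctss rose by 0.74 ± 0.09 and 1.35 ± 0.26. Mmp12, the macrophage elastase, rose by 1.82, Mmp9, the other gelatinase, fell by -0.60 (adjusted p = 0.0459), and Ctsk, the gene for cathepsin K, fell in HGPS (-0.44) and with age (-0.77), and with age Mmp2 fell too (-0.60). Of 5 inhibitors, 3 rose and none fell in HGPS, among them Timp1, from 15.4 to 17.1 CPM in 2-mo WT to 34.9 to 73.0 CPM (1.68 ± 0.17, adjusted p = 5.4e-07), and Timp4 (0.90 ± 0.15, adjusted p = 8.25e-05). All 8 macrophage markers rose in HGPS beside these values, and their part in them was not tested. From 2 to 24 mo, 3 of the 6 proteases fell and none rose, and 1 of the 5 inhibitors rose (Timp4, 0.73) and 1 fell (Timp2, -0.25). Of all tested genes, 6.29% rose and 5.38% fell in that comparison.

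Of 8 receptor genes for elastic fibers and microfibrils, 3 fell and none rose in HGPS (beside 21.2% and 22% of all tested genes), and none passed with age (beside 11.7%). Itga8, for the alpha subunit of an RGD-binding integrin abundant in smooth muscle, fell from 6004 to 7159 CPM in 2-mo WT to 3007 to 4369 CPM (-0.93 ± 0.09, edgeR, adjusted p = 3.53e-07). Itgb3, for the integrin beta3 subunit that pairs with alpha-v to bind fibrillin and other ligands, fell by -0.68 ± 0.13 (adjusted p = 0.000308). These moved together with the smooth muscle score, and with that score as a covariate none of the 47 pathway genes passed the stricter cut-offs in HGPS against 2-mo WT. Because the score did not overlap between HGPS and WT, this fit cannot tell it apart from genotype. The share of all tested genes that passed in this fit is not given here. The part of the cell makeup in these values was not tested. Of the 3 TGF-beta genes, whose products LTBPs hold in the matrix, Tgfb1 (0.73) and Tgfb2 (0.45) rose and Tgfb3 (-0.25) fell in HGPS, and none passed with age.

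**Figure D5:**
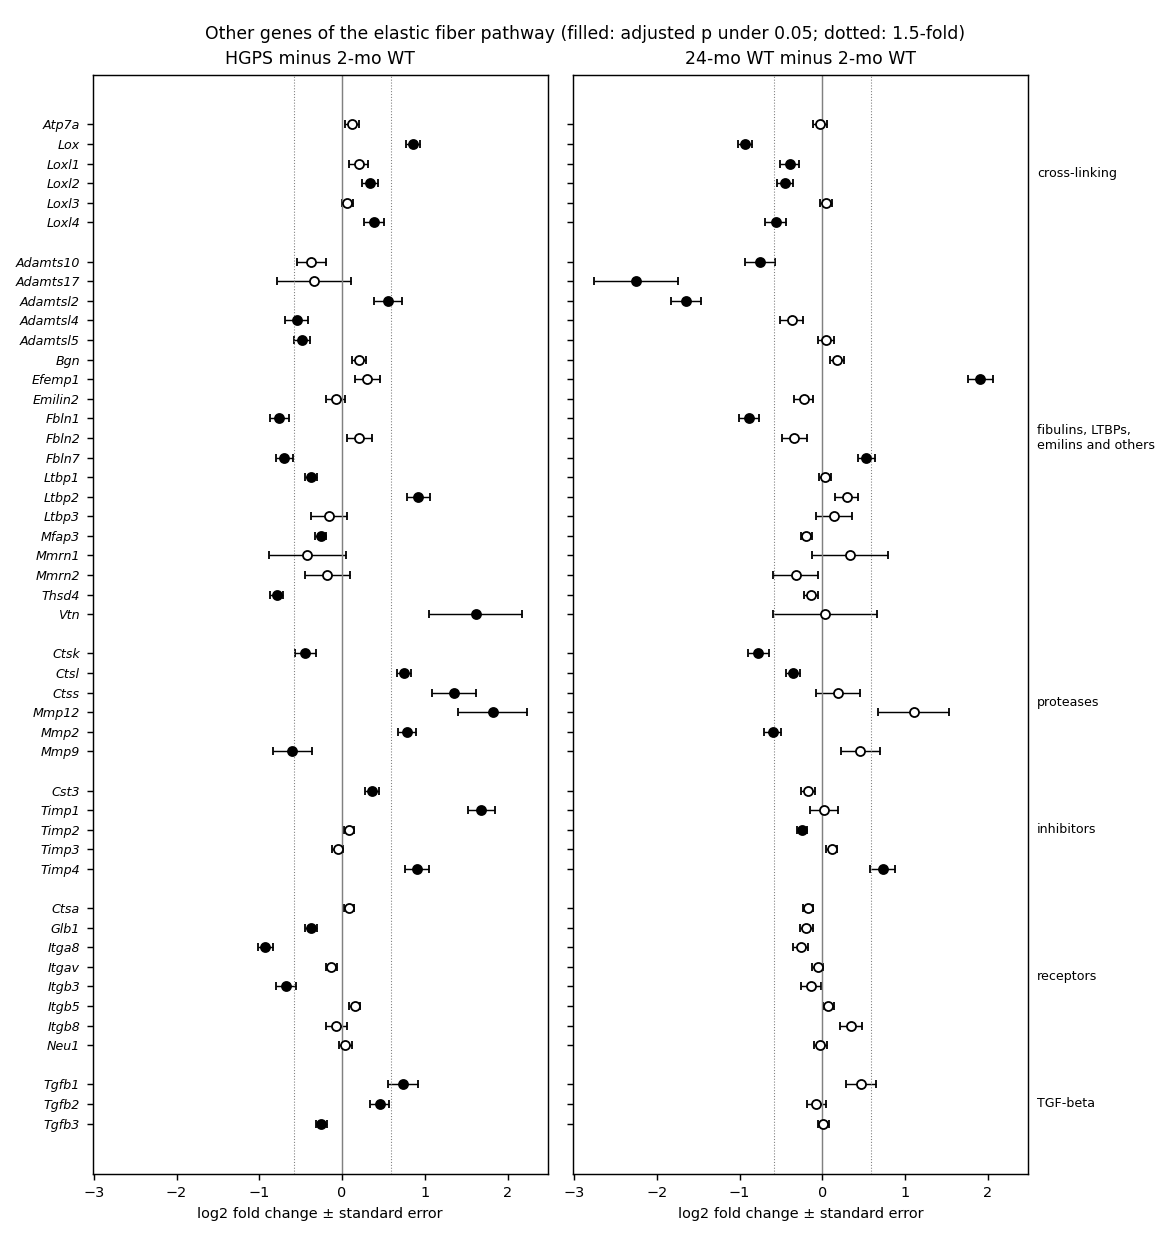
Log2 fold change ± standard error (horizontal axes) of 47 pathway genes, grouped by role, in HGPS against 2-mo WT and in 24-mo against 2-mo WT (6 mice a group). Filled points passed an adjusted p of 0.05 and dotted lines mark 1.5-fold. Lox is positive in HGPS (0.85) and negative with age (-0.94), the proteases and their inhibitors hold several of the highest HGPS values, and Efemp1 stands alone at 1.91 with age.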

How the data were processed

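Aortic RNA of 18 mice was grouped by the labels. The authors made stranded, ribosomal RNA-depleted paired-end libraries, assigned reads to GENCODE M23 transcripts (GRCm38.p6) with salmon and deposited tximport gene sums as whole numbers, which are estimated counts without normalization, and tested them with DESeq2. The submitters' processing notes also list Bowtie 0.12.2. Symbols, coordinates and exon lengths came from GENCODE M21, in which 54107 of 54281 identifiers were found, and no column was left without a sample. The kit is stranded, and by their coordinates none of the 10 genes overlaps another of the 10. Overlap with further genes was not tested.

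The counts were taken as deposited and tested with edgeR 4.0.16 (R 4.3.3, TMM, at least 10 counts in at least 6 mice, 15210 genes, 1 fit of 3 groups, 15 residual degrees of freedom). The prior count of log2 CPM was 2. Correlations used 100000 permutations within groups over the 8 genes tested besides Eln, since Fbn2 could not be tested. Totals were 17838351 to 30844775 in HGPS, 12413229 to 21016752 in 2-mo WT and 13622602 to 19871697 in 24-mo WT, and intervals on counts cover counting error only. No 2 mice of a group agreed within sampling noise (45 pairs, chi-square divided by its degrees of freedom from 8.11 to 95.3). Mice are labelled as separate animals. The fit was tested on simulated counts.

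The genes and lists were chosen with earlier results of these data known. Named were the 10 genes, Lox and every pathway gene past the stricter cut-offs in a comparison, and the 5 genes most like Eln. Further pathway genes were named with their values in view. Alternative settings were DESeq2 1.42.0, other scalings, filters and lengths, a replicate block, the 2 groups alone, mice left out, column-number subsets, marker scores as covariates and a 1.5-fold null.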

Additional observations from a re-analysis of the deposited data

Results flagged for a closer look

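In 29 groups of 6 values tested with Dixon's criterion, 3 had a mouse whose gap to its nearest neighbour exceeded the 95% critical share of the range (0.625), and chance gives about 1 in 20. Eln was 3101 CPM in the 95-d mouse of 2-mo WT (gap 0.692 of the range), the lowest of its group. Emilin1 was 261 CPM (0.651) and Ltbp4 1037 CPM (0.667) in replicate 1 of 24-mo WT, the highest of their group. Without that mouse, 24-mo WT had 171 ± 14.1 CPM of Emilin1 and 587 ± 67.4 CPM of Ltbp4 (SD, n = 5). Why these mice stood apart was not tested.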

How the results depend on the processing

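In each comparison (HGPS against 2-mo WT, 24-mo against 2-mo WT, HGPS against 24-mo WT), the number of the 10 genes past the stricter cut-offs was 1, 3 and 4 and that past an adjusted p of 0.05 was 2, 6 and 6. DESeq2, other scalings, no count filter and the 2 groups alone moved none of these by more than 1.5 times, which still allows a gene to be gained. Mfap5 passed 0.05 in HGPS against 2-mo WT with DESeq2 (adjusted p = 0.0353) and with upper-quartile scaling (edgeR, adjusted p = 0.0499). With no count filter, Fbn2 passed 0.05 against 2-mo WT (edgeR, adjusted p = 0.00315) and the stricter cut-offs against 24-mo WT (adjusted p = 0.000224). The replicate number as a block gave the same counts (1, 3 and 4; 2, 6 and 6) and changed no other count of these genes. Same-numbered mice are different animals with correlations from -0.13 to 0.16, so the numbers do not pair them. Leaving out each mouse gave 1 to 1, 2 to 3 and 4 to 4 genes past the stricter cut-offs, 2 to 3, 4 to 7 and 6 to 7 past 0.05, and 10 to 13, 4 to 6 and 11 to 14 pathway genes. Leaving out the 95-d mouse and replicate 1 of 24-mo WT together, chosen after seeing the data, gave 1, 3 and 4.

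With the smooth muscle score as a covariate, the stricter counts were 0 against 2-mo WT and 0 against 24-mo WT in HGPS, the counts at 0.05 were 0 and 2, and the pathway counts 0 and 1. The score did not overlap between HGPS and WT, so it cannot be told apart from genotype. With brown fat and skeletal muscle scores the stricter counts were 0, 1 and 2 and the pathway count in HGPS against 2-mo WT was 5. HGPS mice 1 to 3 alone gave 0 against 2-mo WT and 2 against 24-mo WT, and mice 4 to 6 alone gave 0 against 2-mo WT and 6 pathway genes, with fewer mice in each fit. Tested against a 1.5-fold change with glmTreat, the stricter counts were 0, 0 and 1, those at 0.05 were 0, 2 and 3, and the pathway counts 1, 2 and 7. By the mean coding transcript length, 3 genes kept their place in the order of levels. The HGPS minus 2-mo WT difference of the Fbn2 to Fbn1 log2 ratio was 2.95 from unscaled counts plus 0.5 and 2.33 without the 95-d mouse, and that of Eln to collagen 0.29 without that mouse (each adjusted p = 0.0675). The share of all tested genes that passed in each of these fits is not given here. The counts therefore do not say whether these genes differed from the rest. The causes were not tested.

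Of the single-gene values over the alternatives, 409 called values stayed called and 27 lost their call, and of values not called, 12 gained one and 29 changed sign. No value that changed sign had been called, and the one farthest from 0 was Mfap5 in HGPS against 2-mo WT (0.34). In HGPS against 2-mo WT, Eln was -0.089 to 0.10 with each mouse left out (below 0 without HGPS replicate 5, HGPS replicate 6 or the 95-d mouse), -0.19 with HGPS mice 1 to 3, -0.17 with the fat and muscle scores and -0.093 with the pair of mice left out. Fbn1 was -0.11 to 0.0015 with each mouse left out (above 0 without HGPS replicate 2), 0.090 with HGPS mice 4 to 6 and 0.24 with the smooth muscle score. Efemp2 was 0.00010 without scaling, -0.053 to 0.0079 with each mouse left out (above 0 without HGPS replicate 2, HGPS replicate 4 or 2-mo WT replicate 5), 0.0022 with HGPS mice 4 to 6, 0.035 with the fat and muscle scores and 0.23 with the smooth muscle score. Mfap4 was 0.015 with HGPS mice 4 to 6 and 0.29 with the smooth muscle score, Emilin1 0.21 with that score, and Fbln5 -0.0064 and Mfap5 -0.0036 with HGPS mice 1 to 3. From 2 to 24 mo, Ltbp4 was -0.085 to 0.18 with each mouse left out (below 0 without 2-mo WT replicate 2 or 24-mo WT replicate 1) and -0.18 with the fat and muscle scores. In HGPS against 24-mo WT, Mfap2 was -0.021 to 0.091 with each mouse left out (below 0 without HGPS replicate 6 or 24-mo WT replicate 3), -0.026 with HGPS mice 1 to 3, -0.16 with the smooth muscle score and -0.0051 with the pair of mice left out. Depth limits Fbn2 (265 counts in HGPS) and Mfap2 (59 to 147 counts per mouse).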
